A study of Mus musculus with 18 samples.

Results

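The 8 long noncoding RNAs (lncRNAs) *Neat1*, *Malat1*, *Gas5*, *Snhg1*, *Snhg12*, *Pvt1*, *Dnm3os* and *Miat* were read out of 24100 genes measured in mouse mesenchymal progenitor cells (MPCs) with and without ATRX. They were found by matching the Entrez identifier of each gene row to these symbols, and all 8 were present in both count tables. The cells were C3H/10T1/2, an embryonic mouse line grown here in standard medium. The lines compared were an isogenic *Atrx* WT line, given a Cas9 vector with no guide, and 2 *Atrx* KO clones, of which sg5 was made with the guide sg5 and sg6 with the guide sg6. Each line is a single clone or line with 3 libraries per kind of RNA-seq, so that n = 3 counts libraries of 1 line, the *p* values measure the spread between these libraries, and a difference from WT includes whatever else differs between the lines. The WT libraries serve as the reference of both clones. RNA was sequenced as 9 polyA-selected and 9 rRNA-depleted libraries.

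Members of this group act as RNA, without being translated. *Neat1* is the scaffold of paraspeckles, and *Malat1* accumulates in nuclear speckles beside the splicing factors. Both are nuclear and abundant in most mouse tissues. *Gas5*, *Snhg1* and *Snhg12* are hosts of small nucleolar RNAs (snoRNAs), which are cut out of their introns and guide the modification of rRNA, while the spliced host RNA is exported and degraded through nonsense-mediated decay. *Pvt1* lies next to the *Myc* oncogene, *Dnm3os* is the antisense transcript that carries the precursors of miR-199a and miR-214 and is known from mesenchymal tissues, and *Miat* is known mainly from the nervous system and retina.

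Total counts ran from 27544833 to 235346363 in the polyA libraries, in which every sg5 library was deeper than every other library, and from 20135336 to 33187136 in the rRNA-depleted libraries, TE loci included. No pair of replicates of the same line and kind held identical values. The targeted gene *Atrx* had no KO library within the WT range in either kind. It fell by 1.24 in sg5 and 1.20 in sg6 on the log2 scale in polyA libraries, and by 1.39 and 1.31 in rRNA-depleted libraries (adjusted *p* at most 0.00227, edgeR). The 10 mesenchymal markers, collagens and *Pdgfra* among them, were all detected, and their summed level was at least 9987 CPM (counts scaled to an equal library total) in each library. Summed leukocyte, endothelial and epithelial markers were at most 42.7, 17.1 and 4.75 CPM in any library. Some markers moved with the KO, as 27.0% (sg5) and 30.7% (sg6) of all genes tested in polyA libraries did (adjusted *p* below 0.05, edgeR). In polyA libraries, mesenchymal markers had 1 higher and 3 lower of 10 in sg5 (median log2 fold change 0.09) and 6 higher and 1 lower in sg6 (0.38). Endothelial markers had 1 higher and 1 lower of 4 tested in sg5 (−0.22), and 1 higher and 2 lower in sg6 (−0.71). Leukocyte markers had 2 lower (sg5) and 1 lower (sg6) of 4 tested, epithelial markers 2 and 1 of 2, and 0 of either was higher in edgeR. In polyA libraries the endothelial receptor gene *Tek* had mean levels of 0.916 (WT), 10.8 (sg5) and 8.76 CPM (sg6) and rose in both clones. The other endothelial marker called in both clones, *Pecam1*, fell from 0.324 to 0.128 and 0.142 CPM. *Pdgfra* fell from 303 to 197 and 157 CPM, whereas *Pdgfrb* rose from 399 to 482 and 522 CPM. *Lyz2* fell from 11.4 to 2.59 and 3.87 CPM and *Cdh1* from 3.68 to 1.16 and 0.387 CPM. The part of these markers in the results below was not tested. Levels below are given as CPM after TMM scaling of all 18 libraries together, so that both kinds of library stand on a common scale.

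*Neat1* and *Malat1* are neighbours on the minus strand of chromosome 19 of GRCm38 (mm10). *Neat1* spans chr19:5824708-5845478 and *Malat1* chr19:5795690-5802672, and 22036 bp lie between them. Their 3′ ends are shown as background to the comparison of library kinds, one of which selects on the tail. PolyA selection captures RNA through its poly(A) tail, whereas rRNA depletion keeps RNA with and without a tail. The long *Neat1* RNA and the mature *Malat1* RNA are known to end without a poly(A) tail, in a triple helix of U-rich and A-rich stretches, after RNase P cuts off a tRNA-like RNA. The short *Neat1* RNA is cut and polyadenylated. The sequences below are from the GENCODE transcripts of GRCm38 in the sense of the RNA. Capitals mark the 3 runs of at least 10 bases that the end of the long *Neat1* transcript shares with the bases before mascRNA, and elsewhere AATAAA, the polyadenylation signal.
Neat1 long transcript, last 90 bases (chr19:5824708-5824797, minus): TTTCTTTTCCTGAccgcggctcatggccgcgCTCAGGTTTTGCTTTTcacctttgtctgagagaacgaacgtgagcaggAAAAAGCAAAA
Neat1 short transcript, last 40 bases (chr19:5842307-5842346, minus): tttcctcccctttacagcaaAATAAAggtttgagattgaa
Malat1, the 90 bases before mascRNA (chr19:5795982-5796071, minus): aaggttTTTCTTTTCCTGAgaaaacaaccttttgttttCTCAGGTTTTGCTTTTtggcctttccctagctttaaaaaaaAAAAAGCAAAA
mascRNA (chr19:5795924-5795981, minus): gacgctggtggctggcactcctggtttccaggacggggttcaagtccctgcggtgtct
Malat1 annotated transcript, last 40 bases (chr19:5795690-5795729, minus): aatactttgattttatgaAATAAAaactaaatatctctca
The long *Neat1* transcript is 20771 nt and the short one 3004 nt. These 3 shared runs were taken from the sequences above and then searched, on the sense strand, in the last 90 bases of the 139864 annotated transcripts that are long enough. The run TTTCTTTTCCTGA was in 2 transcripts (0.00143%). The run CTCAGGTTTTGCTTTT was in 1 (0.000715%), and the run AAAAAGCAAAA was in 61 (0.0436%), and the long *Neat1* transcript was the 1 transcript that held all of them. The *Malat1* window is not among these, because the annotated transcript runs on past mascRNA, whose position is from RefSeq, to the end shown last. The polyadenylation signal was in the last 40 bases of 25.8% of 141704 transcripts. The counts are summed over all transcripts of a gene, so the ends shown here were not counted separately.

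In CPM, which is not divided by the length of the gene, *Neat1* and *Malat1* changed places between the kinds of library. Per kb of annotated exon, *Malat1* was higher in both kinds. Its means were 174 against 73.9 CPM per kb in polyA and 605 against 17.5 in rRNA-depleted libraries. That order depends on the length taken for *Neat1*, as given below. In polyA libraries, *Neat1* was 1243, 1459 and 1416 CPM in WT, 1289, 1443 and 1726 CPM in sg5, and 1397, 1888 and 1946 CPM in sg6. In rRNA-depleted libraries it was 292, 301 and 340 CPM in WT, 436, 400 and 352 CPM in sg5, and 432, 334 and 380 CPM in sg6. Each of the 9 rRNA-depleted libraries was far below each of the 9 polyA libraries. *Malat1* did the opposite. It was 721, 948 and 1240 CPM in WT, 1046, 1258 and 1493 CPM in sg5, and 1045, 1710 and 1470 CPM in sg6 after polyA selection. After rRNA depletion it was 3319, 3524 and 5158 CPM in WT, 4710, 3711 and 3779 CPM in sg5, and 4952, 3955 and 4893 CPM in sg6, and all 9 of these libraries were above all 9 polyA libraries. By mean level among the 24100 genes, *Neat1* ranked 32 in polyA and 423 in rRNA-depleted libraries, and *Malat1* 47 and 6.

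**Figure D1:**
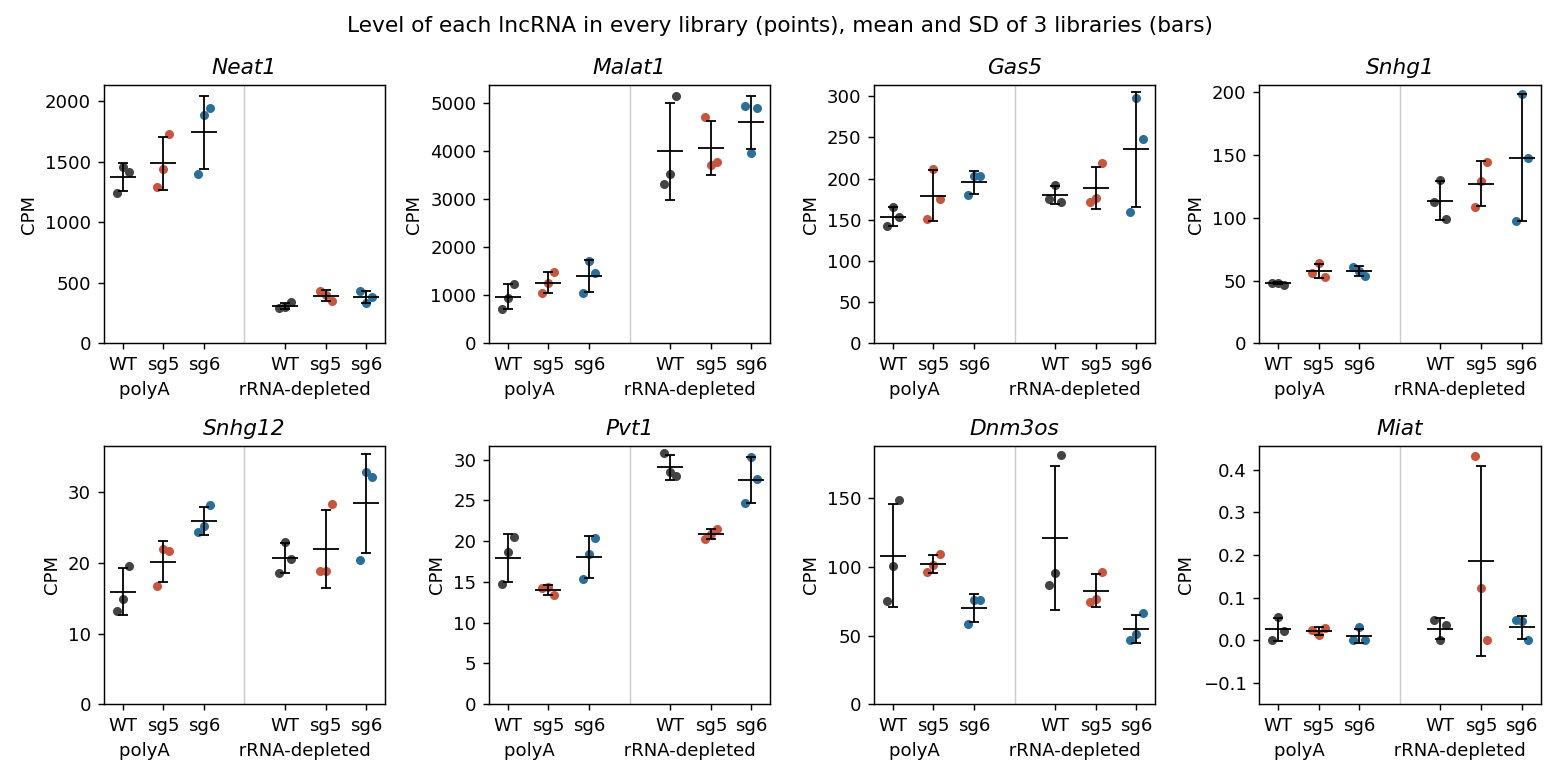
Level of the 8 lncRNAs in CPM (vertical axes, each from its own scale) in the polyA and rRNA-depleted libraries of WT, sg5 and sg6. Points are libraries, and bars give the mean and SD of 3 libraries. *Neat1* is lower and *Malat1* higher in every rRNA-depleted library than in every polyA library, and *Miat* stays below 0.5 CPM throughout.

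In the edgeR fit of all 18 libraries, 4 of the 7 members tested differed between the kinds at an adjusted *p* below 0.05. Of all 14945 genes tested 81.9% differed, so the number of members that did is not a result about them. The procedures differed in more than the selection of RNA, because the kinds were prepared at separate providers per the methods, although the labels name 1 provider for libraries of both kinds, and were aligned and counted with separate tools, and these cannot be told apart. *Neat1* was 4.23-fold lower in rRNA-depleted libraries, with a log2 difference of −2.08 (standard error 0.09, adjusted *p* = 4.26e-12, edgeR quasi-likelihood test). *Malat1* was 3.51-fold higher, with a log2 difference of 1.81 (standard error 0.14, adjusted *p* = 3.22e-09, same edgeR test). *Snhg1* was 2.38-fold higher (log2 difference 1.25, standard error 0.11) and *Pvt1* 1.54-fold higher (0.63, standard error 0.07). The median difference of all genes was −0.10, and relative to it these members stood at −1.98, 1.92, 1.36 and 0.73.

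The other 3 members tested had small differences with intervals that include 0. *Gas5* had a log2 difference of 0.19 (95% interval −0.03 to 0.41), *Snhg12* 0.21 (−0.04 to 0.46) and *Dnm3os* −0.17 (−0.49 to 0.16). Under upper-quartile scaling *Gas5* and *Snhg12* passed (adjusted *p* = 0.0262 and 0.0374 in edgeR), and over all 26 alternatives the adjusted *p* ran from 0.00570 to 0.886 for *Gas5* and from 0.0244 to 0.744 for *Snhg12*. The direction of the 4 members that passed was the same within each line. *Neat1* had −2.14 in WT, −1.91 in sg5 and −2.19 in sg6, and *Malat1* had 2.04, 1.68 and 1.71. *Snhg1* had 1.25, 1.14 and 1.36, and *Pvt1* had 0.69, 0.57 and 0.61. In the RNAs known to lack a poly(A) tail, which were listed as a reference for the selection (histone mRNAs, *Rmrp*, *Rpph1* and *Terc*), all 18 tested were higher in rRNA-depleted libraries, with a median log2 difference of 12.14. The largest were 17.84 for *Rpph1*, the RNA of RNase P, 16.96 for *Rmrp*, the RNA of RNase MRP, and 14.41 for the histone gene *H4c1*. In WT polyA libraries these 3 had means of 0.206, 0.227 and 0.0220 CPM, whereas *Malat1* had at least 721 CPM. The size of their differences thus rests on few polyA counts. The difference of *Malat1* was small beside them, and the tail of its RNA was not tested.

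**Figure D2:**
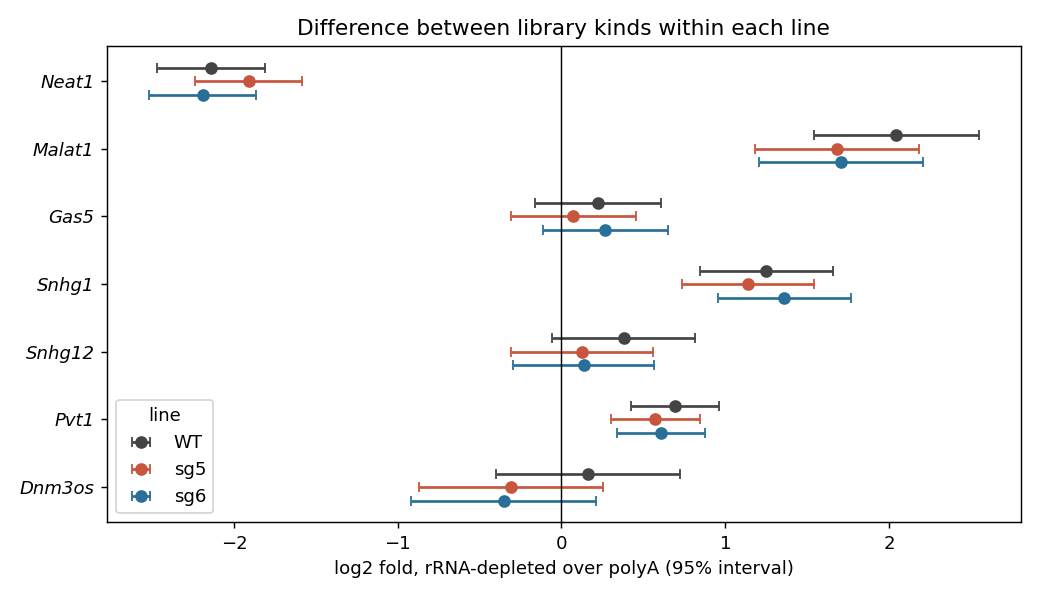
Log2 difference between rRNA-depleted and polyA libraries (horizontal axis, rRNA-depleted over polyA, with 95% intervals) for the 7 lncRNAs tested, within WT, sg5 and sg6. *Neat1* sits near −2 and *Malat1* between 1.68 and 2.04 in the 3 lines, while the intervals of *Gas5*, *Snhg12* and *Dnm3os* cross 0.

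The ratio of *Malat1* to *Neat1* counts is free of the scaling between libraries. In polyA libraries it was 0.580, 0.649 and 0.876 in WT, 0.812, 0.872 and 0.865 in sg5, and 0.748, 0.906 and 0.755 in sg6. In rRNA-depleted libraries it was 11.4, 11.7 and 15.1 in WT, 10.8, 9.28 and 10.7 in sg5, and 11.5, 11.8 and 12.9 in sg6. *Neat1* therefore had more counts than *Malat1* in each polyA library, and fewer in each rRNA-depleted library. The mean log2 ratio differed by 3.90 (standard error 0.10, a 14.9-fold difference) between the kinds (*p* = 4.11e-05, two-sided exact permutation test, 9 against 9 libraries, the smallest *p* that this test can give). The levels above already separate the kinds for each gene, in opposite directions. The ratio therefore had to separate them too, and this *p* is no separate support. It also counts libraries of the same line as replicates. Within a line, 3 libraries against 3 cannot give an exact permutation *p* below 0.1, and each line gave that value, with log2 differences of 4.19 in WT, 3.59 in sg5 and 3.91 in sg6.

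**Figure D3:**
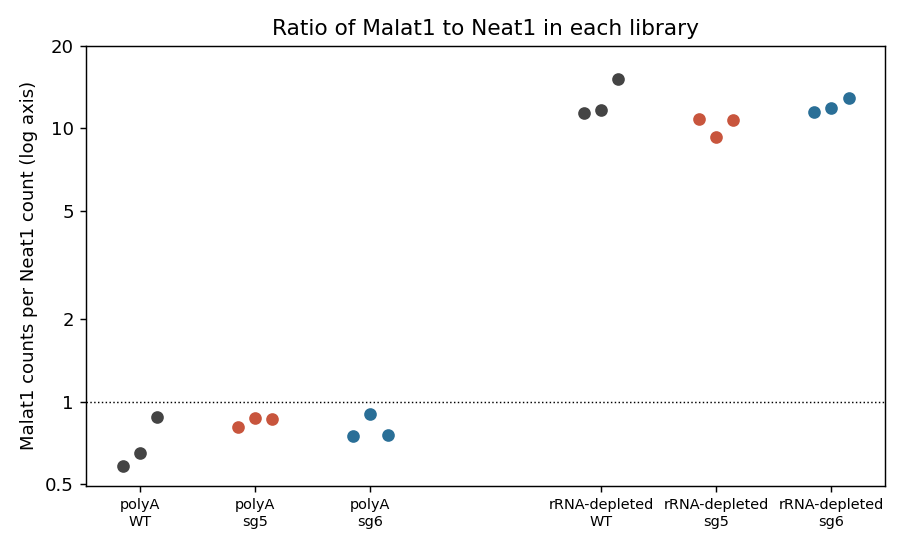
Counts of *Malat1* per count of *Neat1* in each library (log axis), by kind and line; each point is a library and the dotted line marks equal counts. The 9 polyA libraries lie between 0.580 and 0.906 and the 9 rRNA-depleted libraries between 9.28 and 15.1.

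Among the snoRNA hosts, the starts of the RNAs are shown because hosts of this family are known to begin with a run of pyrimidines (C or T), the mark of genes whose RNA is regulated with the translation machinery. The windows cover 20 bases on each side of the annotated start, in the sense of the gene, from the promoter sequences of RefSeq on GRCm38. Capitals mark the longest run of C and T anywhere in the window, which need not be at the start. In *Snhg1* it begins after the annotated start.
Gas5, first start (chr1:161034581-161034620, plus): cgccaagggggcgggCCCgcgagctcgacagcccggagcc
Gas5, second start (chr1:161035146-161035185, plus): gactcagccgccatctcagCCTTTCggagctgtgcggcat
Snhg1 (chr19:8723467-8723506, plus): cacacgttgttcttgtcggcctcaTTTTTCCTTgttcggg
Snhg12 (chr4:132308658-132308697, plus): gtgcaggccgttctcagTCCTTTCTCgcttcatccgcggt
The run is 9 bases long in *Snhg1* and *Snhg12*, and 10.7% of 32851 promoters have a run at least as long in this window. It is 6 bases at the second start of *Gas5*, a length reached by 37.5% of promoters, and 3 bases at the first, reached by 93.7%.

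In the polyA libraries, the members that passed in edgeR were snoRNA hosts, 1 in sg5 and 3 in sg6, and DESeq2 also called *Dnm3os* in sg6. *Snhg1* was 48.4, 48.1 and 47.0 CPM in WT, 56.3, 64.2 and 53.0 CPM in sg5, and 61.2, 58.0 and 53.5 CPM in sg6. All 6 KO libraries were above all 3 WT libraries. The log2 fold change was 0.29 in sg5 (standard error 0.09, adjusted *p* = 0.0338) and 0.29 in sg6 (standard error 0.09, adjusted *p* = 0.0327) under the edgeR quasi-likelihood model, a rise of 1.22-fold in each clone. The rise of *Snhg1* is small, and each call was lost in 5 of the 9 fits that leave out a library: without WT replicate 2 or 3 or sg6 replicate 2 in both clones, without sg5 replicate 1 in both, without sg5 replicate 2 in sg5, and without sg6 replicate 1 in sg6.

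*Snhg12* was 13.2, 14.9 and 19.6 CPM in WT, 16.8, 22.0 and 21.7 CPM in sg5, and 24.3, 25.2 and 28.2 CPM in sg6. The sg6 libraries were above all WT libraries, and the sg5 libraries overlapped them. Its log2 fold change in sg6 was 0.72 (standard error 0.16, adjusted *p* = 0.00832, edgeR quasi-likelihood test), and it passed in all 9 fits without a library. In sg5 it was 0.36 (standard error 0.16, adjusted *p* = 0.126, same edgeR test). *Gas5* was 143, 166 and 153 CPM in WT, 150, 212 and 175 CPM in sg5, and 180, 203 and 203 CPM in sg6. Again the sg6 libraries stood above WT and the sg5 libraries overlapped it. Its log2 fold change in sg6 was 0.36 (standard error 0.12, adjusted *p* = 0.0487, edgeR quasi-likelihood test), close to the threshold, and it passed in 2 of 9 fits without a library, those that left out sg5 replicate 1 or 2. In sg5 it was 0.24 (standard error 0.12, adjusted *p* = 0.183, same edgeR test).

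In total, 1 of 7 members tested passed in sg5 polyA libraries, where 27.0% of all 15480 genes did, and 3 of 7 passed in sg6, where 30.7% did. With the study's threshold, an absolute log2 fold change above 1 in addition, 0 of 7 members passed in either clone, against 10.1% of genes in sg5 and 11.2% in sg6. In the 17 alternatives, DESeq2 among them, the log2 fold changes of the members stayed between −0.81 and 0.90. At an unadjusted *p* below 0.05, edgeR had 3 of 7 members in sg5 and 6 of 7 in sg6, where 38.9% and 41.7% of all genes had such a *p*. The median log2 fold change of the 7 members was 0.24 in sg5 and 0.36 in sg6, and that of all genes −0.0024 and −0.0061. Between the clones, 0 of 7 members differed by edgeR or by DESeq2, where 4.79% of genes did, and 3 had an unadjusted *p* below 0.05 in edgeR. In the sg6 polyA libraries, 7 of 12 tested RNAs without a poly(A) tail were also higher than in WT, and 0 of 12 in sg5 by edgeR (2 at an unadjusted *p* below 0.05, 1 by DESeq2), with median log2 fold changes of 1.04 and 0.15. What part this has in the values of sg6 was not tested.

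In rRNA-depleted RNA, none of *Snhg1*, *Snhg12* and *Gas5* passed in either clone. *Snhg1* was 112, 130 and 98.9 CPM in WT, 108, 129 and 145 CPM in sg5, and 97.5, 198 and 148 CPM in sg6. *Snhg12* was 18.6, 22.9 and 20.6 CPM in WT, 18.8, 18.8 and 28.4 CPM in sg5, and 20.4, 32.8 and 32.1 CPM in sg6. *Gas5* was 175, 192 and 172 CPM in WT, 172, 176 and 218 CPM in sg5, and 160, 298 and 248 CPM in sg6. For each of them the groups overlapped, with sg6 replicate 1 within the WT range or just below it and sg6 replicate 2 the highest library of all 9. Their log2 fold changes were between 0.10 and 0.19 in sg5 and between 0.37 and 0.46 in sg6, and none passed (adjusted *p* from 0.345 to 0.844, edgeR quasi-likelihood test). The difference between the kinds in the KO effect itself was tested as an interaction in the fit of all 18 libraries. It passed for 0 of 7 members in sg5, where 0.435% of genes passed, and for 0 of 7 in sg6, where 0.161% did. In edgeR 0 members had an unadjusted *p* below 0.05 in either, where 9.6% (sg5) and 4.2% (sg6) of genes did, and DESeq2 called 0 members. For *Snhg12*, for example, the KO effect differed between kinds by −0.25 in sg5 (95% interval −0.87 to 0.36) and −0.24 in sg6 (−0.86 to 0.37).

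**Figure D4:**
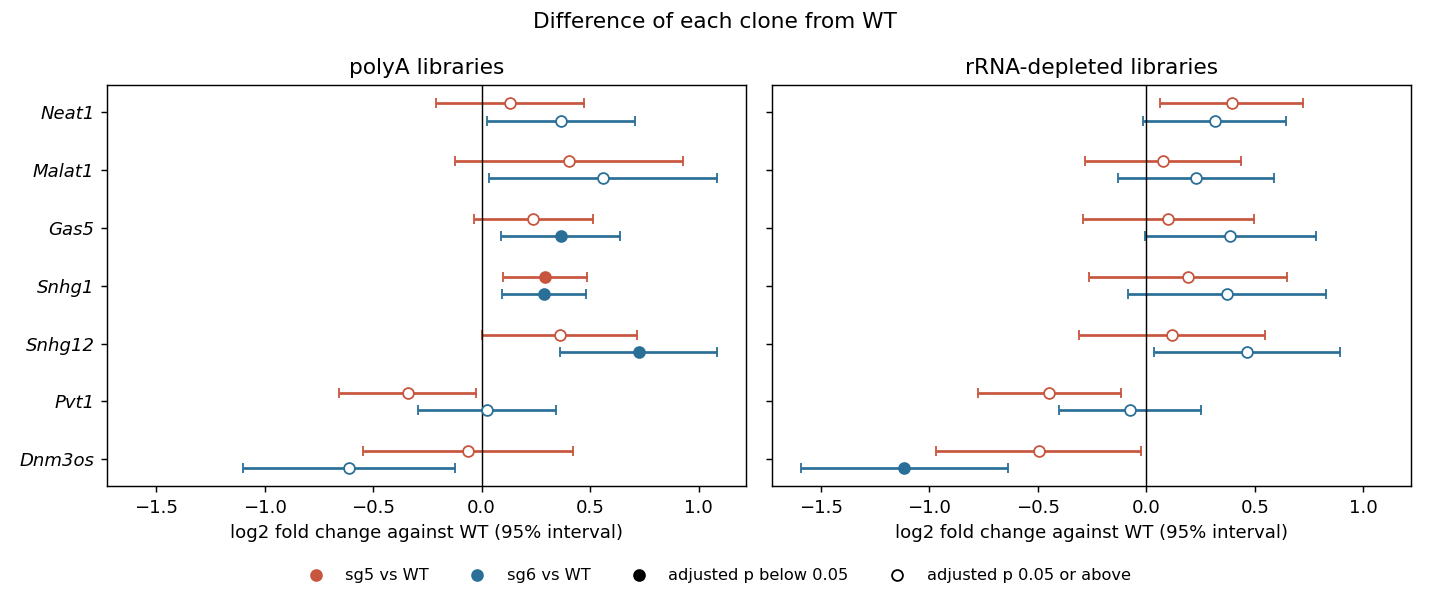
Log2 fold change of the 7 lncRNAs tested in sg5 and sg6 against WT (horizontal axis, with 95% intervals) in polyA libraries (left) and rRNA-depleted libraries (right). Filled points have an adjusted *p* below 0.05 under the edgeR quasi-likelihood model: *Snhg1* in both clones and *Gas5* and *Snhg12* in sg6 for polyA, and *Dnm3os* in sg6 for rRNA-depleted RNA.

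Of the snoRNAs annotated inside these hosts 6 were read, and the others inside *Gas5* and *Snhg1* were not analysed here. *Snord22*, inside *Snhg1*, had 0 to 25 counts in polyA libraries and 86 to 200 in rRNA-depleted libraries, or at most 0.274% and at least 3.44% of the counts of its host. *Snord99*, inside *Snhg12*, had 0 counts in all polyA libraries, which allows up to 3 counts in each, and 6 to 23 in rRNA-depleted libraries. *Snord47*, inside *Gas5*, had median levels of 1.31 and 1.85 CPM, and its libraries of both kinds overlapped. The H/ACA snoRNAs of *Snhg12* were between these cases, *Snora16a* with medians of 0.332 and 0.781 CPM, *Snora44* with 0.230 and 0.594 and *Snora61* with 0.360 and 0.757. Reads of a snoRNA and of the unspliced host cannot be told apart in these counts.

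*Neat1* and *Malat1*, described above by library, did not pass in any clone. In polyA libraries the log2 fold changes of *Malat1* were 0.40 in sg5 (standard error 0.23, adjusted *p* = 0.237) and 0.56 in sg6 (standard error 0.23, adjusted *p* = 0.100) under the edgeR quasi-likelihood model. Replicate 1 was the lowest polyA library of *Malat1* in each line. *Neat1* had 0.13 in sg5 (standard error 0.15, adjusted *p* = 0.563) and 0.37 in sg6 (standard error 0.15, adjusted *p* = 0.0991) in the same edgeR test. In rRNA-depleted libraries *Neat1* had 0.39 and 0.31 (adjusted *p* = 0.203 and 0.427, edgeR quasi-likelihood test). All 3 sg5 libraries were above all WT libraries there, and 2 of 3 sg6 libraries were. *Malat1* had 0.08 (95% interval −0.28 to 0.44) in sg5 and 0.23 (−0.13 to 0.59) in sg6 in rRNA-depleted RNA. These intervals leave room for changes of either sign.

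*Pvt1*, at chr15:62037986-62378096 on the plus strand, was lower in sg5 libraries of both kinds without passing the threshold. In polyA libraries it was 14.8, 18.6 and 20.5 CPM in WT, 14.2, 14.4 and 13.4 CPM in sg5, and 15.3, 18.4 and 20.4 CPM in sg6. In rRNA-depleted libraries it was 30.8, 28.4 and 28.0 CPM in WT, 20.3, 20.9 and 21.5 CPM in sg5, and 24.7, 30.3 and 27.6 CPM in sg6. Each sg5 library was below each WT library of its kind, whereas sg6 and WT overlapped. The log2 fold change in sg5 was −0.34 (standard error 0.14, adjusted *p* = 0.104) for polyA and −0.45 (standard error 0.15, adjusted *p* = 0.143) for rRNA-depleted RNA under the edgeR quasi-likelihood model. In sg6 the values were 0.03 and −0.08. With the genes of the rRNA-depleted table tested alone, without TE loci, *Pvt1* passed in sg5 with −0.51 (adjusted *p* = 0.0118 in edgeR, over a range of 0.0118 to 1 among its alternatives). *Myc*, the neighbour of *Pvt1* that encodes the transcription factor MYC, had log2 fold changes of 0.29 and 0.36 in polyA libraries (adjusted *p* = 0.264 and 0.165, edgeR quasi-likelihood test), values that like those of the neighbours named next to *Snhg1* were picked out after they were seen.

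*Dnm3os*, at chr1:162217623-162225550 on the plus strand, was the only member called lower than WT in the main edgeR fits, in the rRNA-depleted libraries of sg6. The gene holds 4 mature miRNAs, which are shown with their seeds (bases 2 to 8) in capitals because they are the known products of this RNA. The sequences and positions are from RefSeq on GRCm38.
mmu-miR-199a-5p (chr1:162217844-162217866, plus): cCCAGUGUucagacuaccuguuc
mmu-miR-199a-3p (chr1:162217883-162217904, plus): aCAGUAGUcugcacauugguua
mmu-miR-214-5p (chr1:162223397-162223418, plus): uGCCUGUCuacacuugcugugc
mmu-miR-214-3p (chr1:162223438-162223459, plus): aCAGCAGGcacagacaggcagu
The 4 seeds differ from each other, and the miRNAs themselves were not measured here.
In rRNA-depleted libraries *Dnm3os* was 86.5, 95.2 and 181 CPM in WT, 74.5, 76.7 and 96.2 CPM in sg5, and 46.6, 51.1 and 66.4 CPM in sg6. All sg6 libraries were below all WT libraries, while sg5 replicate 3 lay within the WT range. The log2 fold change was −1.12 in sg6 (standard error 0.22, adjusted *p* = 0.0129, edgeR quasi-likelihood test), 2.17-fold lower, and −0.50 in sg5 (standard error 0.22, adjusted *p* = 0.270, same edgeR test). WT replicate 3 was well above the other WT libraries. Without it the change in sg6 was −0.78 (adjusted *p* = 0.0467 in edgeR), and without sg6 replicate 2 it was −1.01 (adjusted *p* = 0.0555 in edgeR), the only fit of the 9 without a library in which the call was lost. *Dnm3os* was the 1 of 7 members that passed in sg6 rRNA-depleted libraries, where 2.89% of 56086 features passed. In these libraries it was also beyond the study's threshold, as 2.45% of features were. These features include TE loci. The study applied that threshold to genes of polyA libraries and took those that met it in both clones. *Dnm3os* did not meet it in sg5 or in the polyA libraries of either clone. With genes tested alone in edgeR, 818 of 13289 were higher and 856 lower in sg6, and 1215 higher and 1240 lower in sg5.

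In polyA libraries *Dnm3os* was 75.4, 100.3 and 149 CPM in WT, 96.2, 102 and 109 CPM in sg5, and 58.1, 75.6 and 76.0 CPM in sg6. WT replicate 3 was again the highest library, and the groups overlapped. The log2 fold change in sg6 was −0.61 (standard error 0.22, adjusted *p* = 0.0594, edgeR quasi-likelihood test) and in sg5 −0.06 (standard error 0.21, adjusted *p* = 0.857, same edgeR test). The value in sg6 passed in DESeq2 (−0.62, adjusted *p* = 0.0233), with the replicate block (−0.58, adjusted *p* = 0.0144, edgeR) and without WT replicate 1 (−0.81, adjusted *p* = 0.00977, edgeR), and over the 17 alternatives the adjusted *p* ran from 0.00977 to 1. The KO effect of sg6 on *Dnm3os* differed between the kinds by −0.52 (95% interval −1.31 to 0.28), which did not pass, so the fall was not shown to differ between the kinds. *Dnm3*, the dynamin gene on whose opposite strand *Dnm3os* lies, was low, with means of 2.48 CPM in WT polyA and 1.43 CPM in WT rRNA-depleted libraries, and the counting is not stated to use strand, so reads of the overlapping parts cannot be told apart. In the rRNA-depleted libraries of sg5, 0 of 7 members passed by edgeR or DESeq2, where 3.88% of features did (3.06% at the study's threshold). In edgeR 3 of them had an unadjusted *p* below 0.05, as 16.9% of features did. Between the clones, 0 of 7 passed by edgeR or DESeq2, where 0.490% of features did. There 2 had an unadjusted *p* below 0.05 in edgeR, as 7.98% of features did.

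*Miat*, at chr5:112213228-112229395 on the minus strand, was not abundant in these cells. It had 0 to 5 counts in polyA libraries and 0 to 10 in rRNA-depleted libraries, with 0 counts in 3 of 9 libraries of each kind. It did not reach the count filter in either kind and was not tested, and no fold change is given. A count of 0 allows up to 3 counts in a library. The name of abundant lncRNA thus holds for *Neat1*, *Malat1* and *Gas5* by rank, less for *Snhg1* and *Dnm3os*, and not for *Miat*. *Gas5* ranked 1013 in polyA and 939 in rRNA-depleted libraries, *Dnm3os* 2309 and 2476, *Snhg1* 4137 and 1574, *Snhg12* 7533 and 6933, and *Pvt1* 8153 and 6603 of 24100 genes. Together the members took 0.248% to 0.407% of gene counts in polyA libraries and 0.403% to 0.613% in rRNA-depleted libraries.

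Compared per length, as CPM per kb of the union of annotated exons, the order of the levels was *Malat1*, *Neat1*, *Gas5*, *Snhg1*, *Dnm3os*, *Snhg12*, *Pvt1* in polyA libraries. The means over 9 libraries were 174 ± 44.2 (SD), 73.9 ± 12.3, 46.9 ± 6.75, 18.3 ± 2.04, 11.8 ± 3.35, 8.60 ± 2.07 and 2.38 ± 0.400 CPM per kb. The ranges of *Malat1*, *Neat1* and *Gas5* did not overlap each other, and those of *Snhg1* and *Dnm3os* and of *Dnm3os* and *Snhg12* did. In rRNA-depleted libraries the order was *Malat1* (605 ± 100.4), *Gas5* (53.5 ± 12.2), *Snhg1* (43.7 ± 10.7), *Neat1* (17.5 ± 2.53), *Dnm3os* (10.9 ± 5.01), *Snhg12* (9.87 ± 2.43) and *Pvt1* (3.69 ± 0.589 CPM per kb). The ranges of *Gas5* and *Snhg1* overlapped there, as did those of *Neat1* and *Dnm3os* and of *Dnm3os* and *Snhg12*. With the longest transcript as the length, *Snhg12* (13.4 CPM per kb in polyA and 15.4 in rRNA-depleted libraries) stood above *Dnm3os* in both kinds, and the polyA ranges of *Neat1* and *Gas5* overlapped. The place of *Neat1* depends on which transcript is counted. Divided by the 3004 nt of the short transcript in place of 20771 nt, its level was 511 ± 85.2 CPM per kb in polyA libraries, above *Malat1*, and 121 ± 17.5 in rRNA-depleted libraries, below it.

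**Figure D5:**
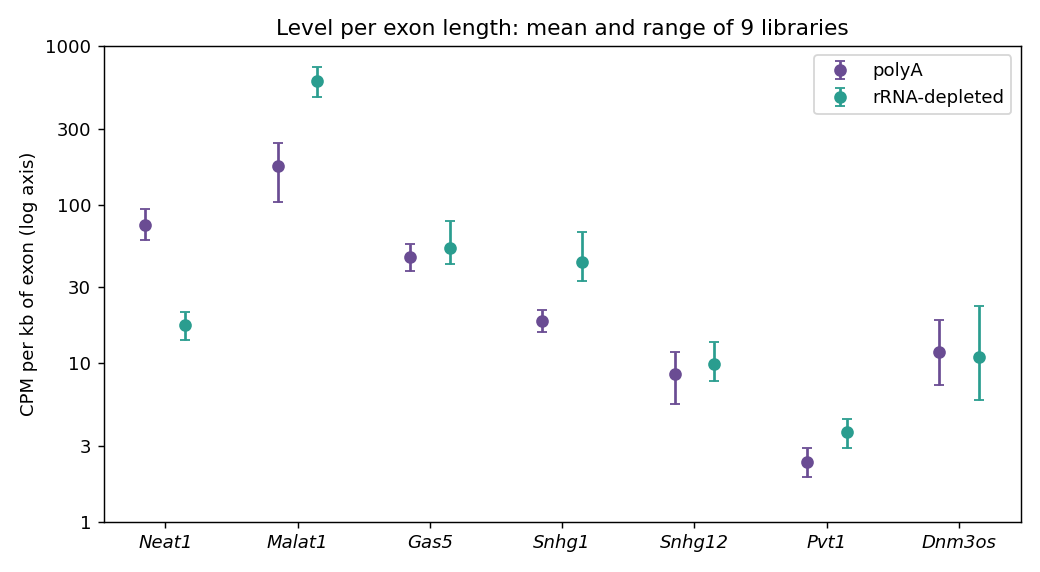
Level of the 7 lncRNAs tested in CPM per kb of exon (log axis) in polyA and rRNA-depleted libraries. Points are means of 9 libraries and bars run from the lowest to the highest library; *Malat1* is highest in both kinds, and the place of *Neat1* is below *Gas5* and *Snhg1* in rRNA-depleted libraries and above both in polyA libraries.

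Of the genes annotated within 50 kb of a member, 37 were tested in polyA libraries. In sg5, 1 was higher and 1 lower, where 27.0% of all genes passed, and in sg6, 2 were higher and 1 lower, where 30.7% did. *Slc25a45*, a mitochondrial carrier gene 32321 bp from *Neat1*, was the neighbour that passed in sg5 and sg6 alike. It had −0.63 in sg5 (standard error 0.18, adjusted *p* = 0.0280) and −0.80 in sg6 (standard error 0.18, adjusted *p* = 0.00903) under the edgeR quasi-likelihood model. *Slc3a2*, the amino acid transporter gene that starts 118 bp from *Snhg1*, passed in sg6 with 0.57 (adjusted *p* = 0.00567, edgeR quasi-likelihood test) and had 0.31 in sg5 (adjusted *p* = 0.0753, same edgeR test). The other calls were *Nxf1* in sg5 and *Wdr74* in sg6, both higher and both near *Snhg1*. In rRNA-depleted libraries 0 of 34 passed in either clone by edgeR or DESeq2, where 3.88% (sg5) and 2.89% (sg6) of features passed in edgeR. At an unadjusted *p* below 0.05 edgeR had 1 (sg5) and 2 (sg6), where 16.9% and 12.6% of features had such a *p*.

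The snoRNA hosts among the members were set beside 16 other noncoding snoRNA hosts. In polyA libraries 1 of 16 was lower and 0 higher in sg5, and 1 higher and 0 lower in sg6, where 27.0% and 30.7% of all genes passed. The median log2 fold changes were 0.03 and 0.17. *Snhg20* was the host that fell in sg5 (−0.66) and *Snhg18* the one that rose in sg6 (0.40). In rRNA-depleted libraries, 1 of 14 was lower in sg5, *Snhg20* again, where 3.88% of features passed. In sg6, 0 of 14 passed by edgeR or DESeq2, where 2.89% of features did in edgeR, and the median was 0.25. There 5 had an unadjusted *p* below 0.05 in edgeR, as 12.6% of features did. Between library kinds, 11 of 16 were higher and 3 lower in rRNA-depleted RNA, where 81.9% of all genes differed, with a median log2 difference of 1.12. Of nonsense-mediated decay factors, 3 of 17 rose and 3 fell in sg5 polyA libraries, where 27.0% of all genes passed, and 3 rose and 4 fell in sg6, where 30.7% did. *Nbas* rose by 0.66 and 0.71, and *Magohb* and *Casc3*, which encode components of the exon junction complex, fell by 1.42 and 1.07 and by 0.44 and 0.30 on the log2 scale. In sg6 rRNA-depleted libraries 0 of these 17 passed by edgeR, where 2.89% of features did, TE loci included. At an unadjusted *p* below 0.05 edgeR had 3, where 12.6% of features had such a *p*, and DESeq2 called 1. In sg5, 1 rose and 2 fell, where 3.88% of features passed. With genes alone, 1215 of 13289 were higher and 1240 lower in sg5, and 818 and 856 in sg6. In rRNA-depleted libraries *Magohb* had −3.18 in sg5, which passed, and −1.36 in sg6, which did not (adjusted *p* = 0.0503, edgeR quasi-likelihood test).

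Genes for proteins of the bodies that *Neat1* and *Malat1* occupy were read from lists, beside the 27.0% (sg5) and 30.7% (sg6) of all genes that passed in polyA libraries and the 3.88% and 2.89% of features that passed in rRNA-depleted libraries. Those features include TE loci. With genes alone, 1215 of 13289 were higher and 1240 lower in sg5, and 818 and 856 in sg6. At an unadjusted *p* below 0.05, edgeR had 16.9% (sg5) and 12.6% (sg6) of the features. Of 20 paraspeckle proteins, 1 rose and 2 fell in sg5 polyA libraries, and 1 rose and 5 fell in sg6, with median log2 fold changes of −0.02 and −0.14. *Zfp24*, a zinc finger protein, rose by 0.61 and 0.38, and *Taf15*, an RNA-binding protein of the FET family, fell by 0.57 and 0.44 on the log2 scale. In rRNA-depleted libraries *Zfp24* was the 1 of 20 that rose in sg5, and 0 of 20 passed in sg6 by edgeR or DESeq2 (3 at an unadjusted *p* below 0.05 in edgeR). Of 12 nuclear speckle proteins, 3 rose and 0 fell in sg5 polyA libraries, and 1 rose and 1 fell in sg6. *Srsf5*, a splicing factor, rose by 0.53 in each clone. In rRNA-depleted libraries 0 of 12 passed in either clone by edgeR or DESeq2, with 2 (sg5) and 1 (sg6) at an unadjusted *p* below 0.05 in edgeR.

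The fixed list of other lncRNAs had 20 genes tested in polyA libraries. In each clone 6 rose and 3 fell, where 27.0% (sg5) and 30.7% (sg6) of all genes passed, with median log2 fold changes of 0.33 and 0.31, and all 9 were called in both clones in the same direction. *Peg13*, an imprinted lncRNA, was 17.9 ± 1.91 (WT), 43.2 ± 3.42 (sg5) and 46.0 ± 3.43 CPM (sg6; SD, n = 3 libraries). It rose by 1.29 in sg5 and by 1.38 in sg6 on the log2 scale (adjusted *p* = 5.53e-05 and 3.36e-05, edgeR quasi-likelihood). It also rose in rRNA-depleted libraries, by 1.66 and 1.42. *Crnde* rose by 0.62 and 0.65, and *Oip5os1* by 0.42 and 0.30. In rRNA-depleted libraries 5 of 18 rose and 1 fell in sg5, and 2 rose in sg6, where 3.88% and 2.89% of features passed, TE loci included. With genes alone, 1215 of 13289 were higher and 1240 lower in sg5, and 818 and 856 in sg6.

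Likeness of pattern was read as the Pearson *r* of log2 CPM over the 9 libraries of a kind, among 12937 genes tested in both kinds, taking the smaller *r* of the kinds. These libraries share depth and line differences, so the values are descriptive. *Gas5* was most like *Odc1*, the rate-limiting enzyme of polyamine synthesis (*r* = 0.948 in polyA and 0.947 in rRNA-depleted libraries), and *Zc2hc1a*. *Snhg1* was most like *Lars* (0.924 and 0.929), a leucyl-tRNA synthetase, and *Adss*, an enzyme of AMP synthesis. *Snhg12* was most like *Gadd45a*, a stress-induced gene (0.868 and 0.884), and *Zc2hc1a*. *Neat1* was most like *Dynlt3* (0.897 and 0.910) and *Peli2*, and *Malat1* most like the clock gene *Per3* (0.864 and 0.856) and *AU021092*. *Pvt1* was most like *Zfp808* and *Gid4*, and *Dnm3os* most like *Zfp932* and *Fmo1*.

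Among the members, correlations of the snoRNA hosts with each other were positive in both kinds. *Gas5* had *r* = 0.693 and 0.944 with *Snhg1* and 0.827 and 0.919 with *Snhg12* in polyA and rRNA-depleted libraries, and *Snhg1* and *Snhg12* had 0.592 and 0.803. *Neat1* and *Malat1* had 0.865 and 0.649. Between these groups the sign was not shared by the kinds: *Malat1* and *Snhg12* had 0.840 in polyA and −0.147 in rRNA-depleted libraries, and *Neat1* and *Gas5* had 0.732 and −0.252.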

How the data were processed

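PolyA-selected and rRNA-depleted RNA was measured in 9 libraries each, 3 per line. For polyA libraries, the authors used Salmon on mm10 known genes and deposited expected counts per gene, which are whole numbers. Reads of rRNA-depleted libraries went through STAR, and the deposited read counts per gene and TE locus are from TElocal, which shares out reads with several alignments. The strand setting is not given in the sources used here. Counts were tested with edgeR 4.0.16 (R 4.3.3; filterByExpr, TMM, quasi-likelihood, group only, Benjamini-Hochberg adjustment over all features of a fit, threshold 0.05) per kind, and on the 24100 shared genes of all 18 libraries for the contrast of kinds. Of these, 24045 had a RefSeq symbol. A step of each test was checked on simulated data. With a log2 fold change of 1 put into 100 features of sg6, edgeR found 63 in polyA and 4 in rRNA-depleted libraries. With a change of 2 it found 90 and 29. Among features left unchanged, edgeR called 14 in polyA and 2 in rRNA-depleted libraries, and DESeq2 45 and 11. The rRNA-depleted features were drawn from genes and TE loci together, so these rates need not hold for the members, which were not simulated separately. A count of 0 passing in rRNA-depleted libraries therefore does not show that no change is there. Alternatives were DESeq2 1.42.0, median-of-ratios, upper-quartile or total scaling, no filter, at least 10 counts in every library, thinning, a replicate block, only the groups compared, glmTreat, genes without TE loci, the longest transcript as length, and leaving out each library. The short *Neat1* length and the ratio without each library were chosen after seeing the data. The members, gene lists and tests were chosen with earlier results of these data known. Named genes are the members, *Atrx*, the 3 genes per list with the smallest adjusted *p* among those passing in both clones in the same direction (for RNAs without a tail, the 3 largest kind differences), neighbours passing in both clones, and the 2 genes most like each member; *Myc*, *Slc3a2*, *Nxf1*, *Wdr74*, *Snhg18*, *Snhg20*, *Dnm3* and snoRNAs were named outside this rule. Figures were drawn with matplotlib 3.10.9.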

Additional observations from a re-analysis of the deposited data

How the results depend on the processing

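Of 1281 alternative fits of single members, 1203 kept direction and side of the threshold, 29 lost a call, 23 gained one and 26 changed sign. Most of these fits are of comparisons with no call to lose. Of the calls against WT in polyA libraries, *Snhg1* held in 10 of 17 alternatives in each clone. In sg6, *Gas5* held in 5 of 17 and *Snhg12* in 16 of 17. The call of *Dnm3os* in sg6 rRNA-depleted libraries held in 16 of 18. The 4 members that differed between library kinds passed in the same direction in all 26 alternatives, and leaving out a library gave 4 to 6 members called there. Scaling by library totals moved the median of all genes to −0.27 and the share of calls that are higher in rRNA-depleted RNA from 46.4% to 39.6%. With glmTreat against a log2 fold change of 1, 0 members passed in any clone, where 1 (sg5 polyA), 3 (sg6 polyA) and 1 (sg6 rRNA-depleted) had, and *Atrx* did not pass either, with −1.24 (adjusted *p* = 0.0946) and −1.20 (0.160) in polyA and −1.39 (0.405) and −1.31 (0.765) in rRNA-depleted libraries. Fitting only the groups compared gave 0 members in sg5 polyA and 1 between the clones in place of 0. In sg5 rRNA-depleted libraries, 1 member passed in place of 0 with at least 10 counts in every library or with genes alone. The cause of these changes was not tested. Leaving out each library gave 0 to 2 members in sg5 polyA, 1 to 3 in sg6 polyA and 0 to 1 in sg6 rRNA-depleted libraries.

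Signs turned for members that had not passed. *Malat1* in sg5 rRNA-depleted libraries had −0.0018 with genes alone, and the difference between kinds in the sg6 effect on *Gas5* was −0.043 with no filter. Without each library in turn, polyA values ran from −0.26 to 0.24 for *Dnm3os* in sg5, −0.086 to 0.13 for *Pvt1* in sg6, and, between the clones, −0.33 to 0.0083 for *Malat1* and −0.074 to 0.065 for *Snhg1*. Values in rRNA-depleted libraries ran from −0.014 to 0.23 for *Malat1* and −0.045 to 0.25 for *Snhg12* in sg5, −0.16 to 0.080 for *Pvt1* in sg6, and, between the clones, −0.023 to 0.23 for *Neat1* and −0.38 to 0.072 for *Snhg1*. The differences between kinds ran from −0.22 to 0.0061 for *Snhg1* in sg5, and in sg6 from −0.19 to 0.045 for *Neat1*, −0.15 to 0.27 for *Gas5*, −0.15 to 0.34 for *Snhg1* and −0.26 to 0.019 for *Pvt1*. The log2 difference of the *Malat1* to *Neat1* ratio stayed between 3.85 and 3.94.

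Libraries share only a replicate number. The deviations of same-numbered libraries had positive correlations in all 9 pairs of each kind, from 0.0257 with a mean of 0.260 in polyA and from 0.0554 with a mean of 0.121 in rRNA-depleted libraries. For libraries of other numbers the means were −0.127 and −0.0601. Deviations cancel out over the libraries of a line, so these negative means follow from the positive ones and are no separate comparison. In polyA 6 of 9 and in rRNA-depleted RNA 5 of 9 libraries were, within each of the other lines, most like the library of their own number. With the replicate block, 4 members passed in sg5 polyA libraries (*Snhg1*, *Gas5*, *Malat1* and *Snhg12*), 6 in sg6 (all tested but *Pvt1*) and 1 between the clones (*Dnm3os*, 0.56).

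*Miat* was too low to be tested at these depths.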
